A study of Mus musculus with 6 samples.

Results

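The genes described here are 8 genes of the B cell receptor and the B lineage, *Cd79a*, *Cd79b*, *Ms4a1*, *Pax5*, *Ighm*, *Ighd*, *Igkc* and *Jchain*, out of 31053 genes in the table. They were chosen by name and followed through all 12 cell type labels and all 4 libraries, including the transcripts found outside cells labelled B cells. All 8 were present under these symbols. CD45+ cells were bead-enriched from CT26 tumors, a mouse colon carcinoma, implanted in female Balb/c mice, 5 days after treatment. Per the labels, 6 tumors fell into 3 groups of 2, which received vehicle, a low dose or a high dose of a bispecific antibody that blocks PD-1 and carries the GITR ligand. For the low dose the labels conflict, naming 10 mg/kg in the treatment protocol but 30 mg/kg among the characteristics, while the high dose is 30 mg/kg throughout. The 4 libraries in the table, M1, M2, M5 and M6, could not be matched to a tumor or treatment, so no treatment was compared and no p-value is given. The 8 genes are given per library or as a range where a result turns on it, and other values are pooled over the libraries.

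A B cell receptor is a membrane immunoglobulin, built of a heavy and a light chain, bound to a signaling pair encoded by *Cd79a* and *Cd79b*. Naive B cells carry the mu (*Ighm*) and delta (*Ighd*) heavy chains together. After activation a cell can switch to a gamma, alpha or epsilon class, and plasma cells secrete antibody in bulk, with the joining chain (*Jchain*) linking units of IgM and IgA. PAX5 holds the B cell program and is lost in plasma cells, as is CD20, the product of *Ms4a1*.

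On GRCm38 with GENCODE M21, *Ighm* (chr12:113418558-113422730, minus strand) and *Ighd* (chr12:113406604-113416324, minus strand) are neighboring constant region genes of the heavy chain locus. *Igkc*, the kappa constant region, lies at chr6:70726435-70726966 on the plus strand. *Cd79a* lies at chr7:24897381-24902197 (plus), *Cd79b* at chr11:106311341-106314762 (minus), *Ms4a1* at chr19:11249675-11266241 (minus), *Pax5* at chr4:44524757-44710487 (minus) and *Jchain* at chr5:88519809-88527891 (minus). The stretches before the annotated starts of *Cd79a* (chr7:24897247-24897380, plus) and *Jchain* (chr5:88527898-88528031, minus) are shown because *Cd79a* was found in nearly all B cells and *Jchain* in 2 of them. Both are from RefSeq on GRCm38.p6, end at the base before the RefSeq start and are written 5′ to 3′, with E-boxes (CANNTG, which reads the same on both strands) in capitals.
Cd79a: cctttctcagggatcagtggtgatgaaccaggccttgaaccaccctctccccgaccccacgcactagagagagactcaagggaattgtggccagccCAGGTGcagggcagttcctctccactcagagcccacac
Jchain: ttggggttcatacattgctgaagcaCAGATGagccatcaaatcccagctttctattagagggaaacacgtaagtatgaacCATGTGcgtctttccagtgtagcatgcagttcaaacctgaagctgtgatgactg
An E-box was found in 72.3% of the 32851 promoter windows of the reference, so its presence does not set these windows apart. Windows were at hand for 3 of the 8 genes, *Cd79a*, *Pax5* and *Jchain*. The octamer ATGCAAAT, searched on both strands, was found in 1.74% of all windows and in 0 of these 3.

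The lambda constant genes *Iglc2* (chr16:19198396-19200351, minus) and *Iglc3* (chr16:19065230-19065681, minus) return below with different patterns, although their last 300 coding bases are identical at 289 positions (96.3%). Their last 90 coding bases differ at 1 position, in capitals, in GENCODE M21 on GRCm38 (chr16:19198536-19198625 and chr16:19065365-19065454, both minus strand).
Iglc2: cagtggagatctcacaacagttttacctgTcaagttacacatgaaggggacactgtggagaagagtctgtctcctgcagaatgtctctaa
Iglc3: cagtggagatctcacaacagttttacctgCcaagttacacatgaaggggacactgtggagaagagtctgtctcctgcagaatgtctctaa
Of the 100 bases after the stop codon, nearer the 3′ end that the libraries read, 62 are identical. Counts of the 2 genes are uncertain where reads fall in the coding end, and how often they do is not known.

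The table held 33961 cells, with 7160 to 10294 cells per library and library medians of 11399 to 21800.5 unique molecular identifiers (UMIs, each counting one captured transcript) per cell. Of these, 124 cells (0.365%, 95% exact binomial interval 0.304 to 0.435) carried the label B cells, namely 40 from M1, 31 from M2, 19 from M5 and 34 from M6. Their median depth was 2811 UMIs, the lowest of the 12 labels, against 5397 in cells labelled NK cells and 40692 in Stroma. Because the chance of seeing a UMI grows with depth, shares of cells are given after every cell was thinned to 2000 UMIs, which kept 112 of the 124 cells. Levels are CPM, the usual scaling of counts to a fixed total, computed on the pooled UMIs of all cells with a label. The 3′ counting takes 1 UMI per transcript whatever its length. Intervals cover counting error only. 111 barcodes occurred in more than 1 library.

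The B cell label was checked first against its own and other markers. Of the 124 cells, 118 held UMIs of 2 or more of *Cd79a*, *Cd79b*, *Ms4a1* and *Pax5*, 51 held all 4, and 1 held none. The pan-leukocyte gene *Ptprc* (CD45) had 467 CPM in B cells, against 7.47 in Stroma, whose collagen and decorin markers summed to 1307 CPM. T cell markers (*Cd3d*, *Cd3e*, *Cd3g*, *Trac*) had 32 UMIs in 12 of the B cells, with 32.9 to 169 CPM over the libraries. NK cell markers (*Ncr1*, *Klrb1c*, *Eomes*) had 4 UMIs, with 1 of the 3 genes at 0. Myeloid markers had 57 UMIs in 34 cells, with 1 of the 4 at 0. Stroma markers had 30 UMIs in 23 cells, at 67.8 CPM. The plasmacytoid DC markers, which include *Ly6d*, a gene B cells also express and which gave 304 of the UMIs, had 519 UMIs in 96 cells, at 1172 CPM against 1420 in DC. The same markers had 1138 CPM in Stroma, so as a set they do not single out DC. The part of other cells in the values was not tested.

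**Figure D1:**
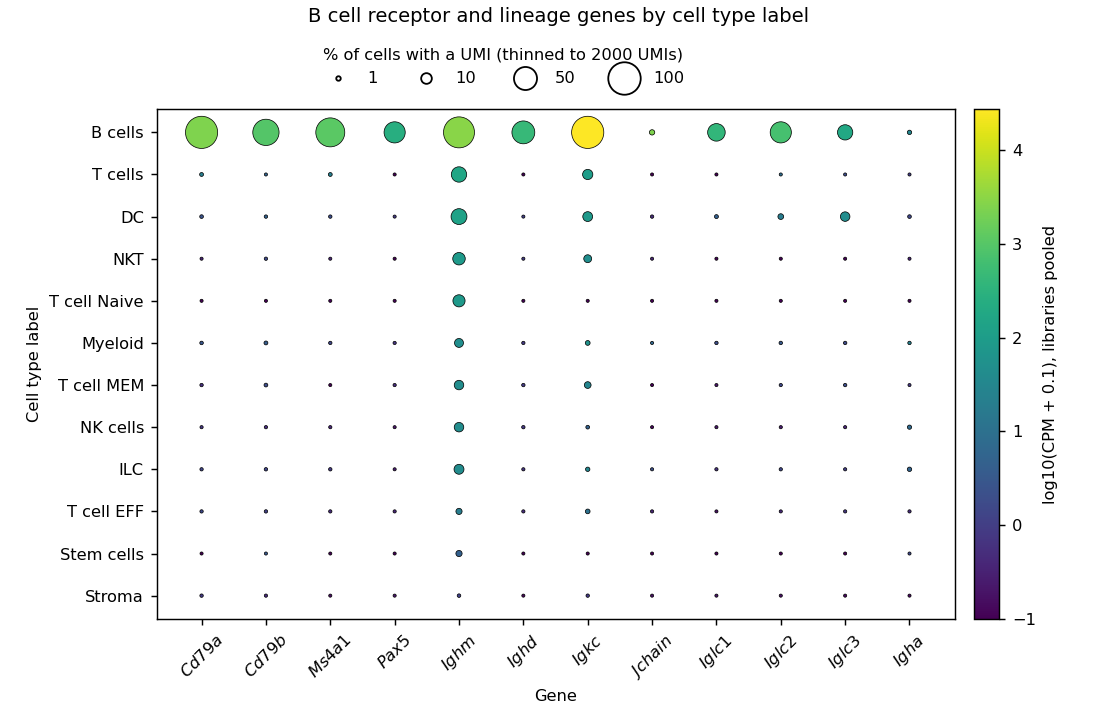
Dot area shows the percent of cells with a UMI after thinning to 2000 UMIs and color the log10 of CPM + 0.1, for the 8 genes and 4 further immunoglobulin constant genes (columns) in the 12 labels (rows), libraries pooled. *Ighm* has sizeable dots well outside B cells (23.2% of DC cells), *Igkc* smaller ones (8.35% of DC cells), and *Cd79a*, *Ms4a1* and *Pax5* almost none.

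All 8 genes had their highest pooled level in the B cell label, and 7 of them in each library, *Jchain* being the exception. Of the 18168 genes with at least 20 UMIs in the table, 12.3% were highest in the B cell label with libraries pooled and 1.35% in each of the 4 libraries. The labels came from correlation with reference profiles, and these genes may have been among those used, so this order describes the label and is no test. Log2 ratios below set the B cell label against the next highest label, with a pseudocount of 1 CPM, and their median over those 18168 genes was -0.82.

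Of the receptor chains, *Igkc* was the most abundant transcript of the set, and the level of 1 library came almost wholly from 1 cell. In the order M1, M2, M5 and M6, which is kept below, *Igkc* had 7350, 80137, 7662 and 7675 CPM. M1, M5 and M6 thus lay close together and M2 stood far above them. Without the 2 B cells rich in *Jchain* described further on, the level was 7313, 7485, 7662 and 7675 CPM, and pooled it was 7526 instead of 27464. A UMI of *Igkc* was found in 98.2% of thinned cells (interval 93.7 to 99.8) and in 120 of 124 unthinned ones, with a median of 24 UMIs per cell and quartiles of 13.75 and 33.25.

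*Ighm* had 2598, 2617, 3326 and 3664 CPM. It was found in 91.1% of thinned cells (84.2 to 95.6), with a median of 7 UMIs per cell and a highest value of 43. *Ighd* had 350, 337, 561 and 569 CPM, below *Ighm* in every library, and was found in 49.1% of thinned cells (39.5 to 58.7). Without thinning, 69 of the 124 cells held both heavy chains, 50 held *Ighm* alone, 3 *Ighd* alone and 2 neither. At a median of 1 *Ighd* UMI per cell, a cell without one cannot be called negative.

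The signaling pair was uneven in abundance. *Cd79a* had 2505, 1934, 2691 and 2748 CPM, and its UMIs were found in 122 of 124 cells, 98.2% after thinning. *Cd79b* had 894, 675, 959 and 1298 CPM, below *Cd79a* in every library, and was found in 65.2% of thinned cells (55.6 to 73.9). Both were seen together in 93 cells, *Cd79a* alone in 29, *Cd79b* alone in 1 and neither in 1.

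*Ms4a1* had 988, 930, 1221 and 1370 CPM, and 79.5% of thinned cells carried it (70.8 to 86.5). *Pax5*, the transcription factor gene, was the lowest of the set apart from *Jchain* in 2 libraries, with 202, 198, 224 and 382 CPM, and 42.0% of thinned cells carried it (32.7 to 51.7). For *Cd79b*, *Ms4a1*, *Pax5*, *Ighm*, *Ighd* and *Cd79a* alike the highest library was M6. The level varied between libraries by less than 2-fold for these 6 genes.

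**Figure D2:**
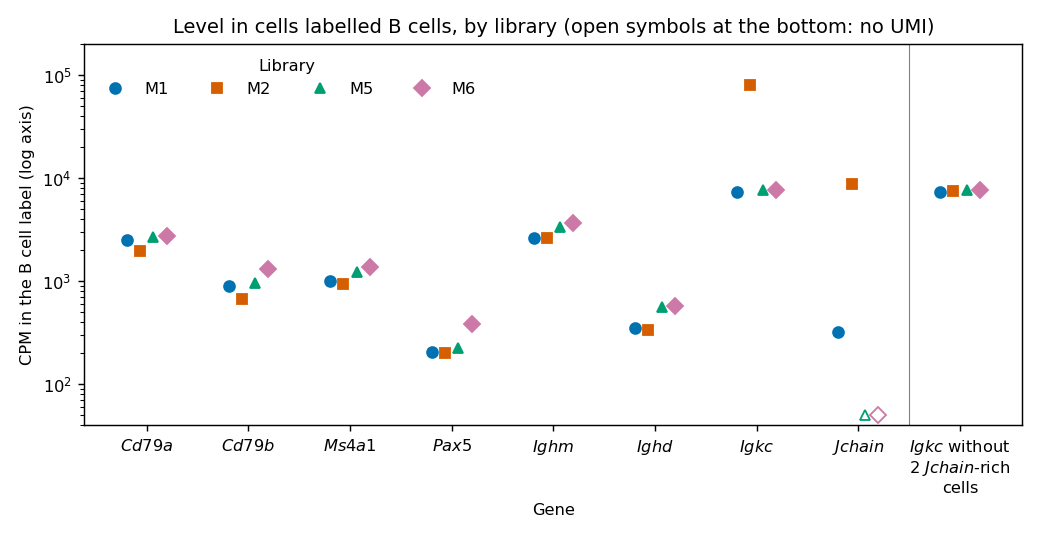
CPM (log axis) of each gene in cells labelled B cells, one symbol per library, with *Igkc* shown again at the right without the 2 cells rich in *Jchain*. M2 stands apart for *Igkc* (80137 CPM) and *Jchain* (8682 CPM), and its *Igkc* level joins the others (7485 CPM) once those cells are left out.

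*Jchain* behaved unlike the other 7 genes, as 2 of the 124 cells held all 1096 of its UMIs in the B cell label. It had 319 CPM in M1 and 8682 in M2. It had no UMI in M5 and M6, where a count of 0 allows up to 37.4 and 26.7 CPM. Over all labels, 77 cells held a *Jchain* UMI, and 4 of them, each with at least 20, held 1443 of 1527 UMIs (94.5%). The fifth richest cell held 5. The other 73 cells held 84 UMIs in all, and 50 of them were labelled Stroma, the label of 15687 of the 33961 cells. The *Jchain* level in Stroma was 0.0794 CPM, against 0.266 in T cell EFF and 0.0253 in NK cells. Without their cell of at least 20 UMIs, ILC had 0.133 and Myeloid 0.0264 CPM.

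The 4 cells rich in *Jchain* carried 3 different labels and 3 leading heavy chain classes, *Ighg2b* in both cells of M2, *Ighg1* in M1 and *Igha* in M5. They were picked by this gene, so its level in them is no finding. The first, labelled B cells in M2, held 8990 *Igkc* UMIs among 21579, or 41.7% of its transcripts, with 1055 of *Jchain* and 227 of *Mzb1*, a chaperone of antibody-secreting cells. It held 78 UMIs of *Ighg2b*, 62 of *Ighg2c*, 22 of *Ighm* and 162 of the lambda variable gene *Iglv1*. *Ighg2a* is not in the table, so the part of its transcripts in the *Ighg2c* count was not tested. The cell also held 5 UMIs of the plasma cell surface gene *Sdc1*, 10 of *Xbp1*, 8 of *Derl3* and 4 of *Slamf7*. It held 6 of *Cd79b* and 3 of *Cd79a*, and 0 of *Tnfrsf17*, *Prdm1*, *Irf4*, *Ms4a1* and *Pax5*. The second, labelled B cells in M1, held 86 UMIs of *Ighg1* and none of *Ighm* among 17804, with 135 of *Igkc*, 41 of *Jchain*, 21 of *Mzb1*, 16 of *Cd79a* and 5 of *Ms4a1*. It held 2 UMIs of *Slamf7*, 1 each of *Xbp1*, *Tnfrsf17* and *Irf4*, and 0 of *Sdc1*, *Derl3* and *Prdm1*.

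The other two lay outside the B cell label. One, labelled ILC in M2, held 1463 *Igkc*, 507 *Ighg2b*, 118 *Jchain* and 41 *Iglv1* UMIs among 12021, with 7 of the NK cell receptor gene *Ncr1*, 2 of *Ms4a1* and 0 of *Cd79a*. This cell held 6 UMIs of *Mzb1*, 1 each of *Xbp1* and *Slamf7*, and 0 of *Sdc1*, *Derl3*, *Tnfrsf17*, *Prdm1* and *Irf4*. It thus held *Ighg2b* and *Iglv1*, as did the first cell of the same library. The last, labelled Myeloid in M5, held 808 UMIs of *Igha*, the alpha class, with 1640 of *Igkc*, 229 of *Jchain*, 69 of *Mzb1* and 8 of *Tnfrsf17*, the survival receptor of plasma cells. It also held 247 UMIs of *Lyz2* and 89 of *C1qa*, both macrophage genes, among 48296. Doublet scores of the 4 cells were 0.422, 0.0895, 0.422 and 0.102 in this order, and scores over 0.25 were found in 606 of all cells. Whether these were single cells was not tested.

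Immunoglobulin constant genes made up a median of 1.25% of a B cell's UMIs (quartiles 0.854 and 1.71). The highest cell had 42.8% and the next 3.22%. Of 118 cells with at least 5 light chain UMIs, 97 had 80% or more from *Igkc*, 4 had 80% or more from *Iglc1*, *Iglc2* and *Iglc3*, and 17 lay between. The thresholds were chosen after the values had been seen. Switched classes were rare. Only 3 cells held 5 or more UMIs of one, namely the 2 cells rich in *Jchain* and a cell of M5 with 14 *Igha*, 63 *Igkc* and 9 *Cd79a* UMIs and none of *Ighm* or *Jchain*. Of 348 variable region genes in the table, UMIs were seen in 34 B cells, 241 in all, of which 198 came from the *Jchain*-rich cell of M2. The 3′ libraries thus give almost no variable sequence to pair with the constant regions.

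**Figure D3:**
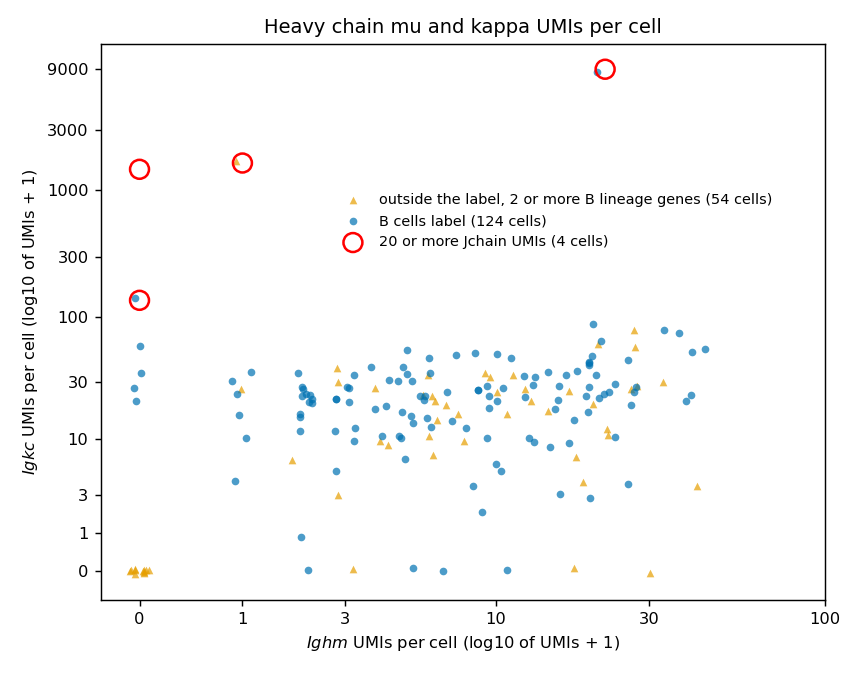
Each point is a cell, with *Ighm* UMIs on the x axis and *Igkc* UMIs on the y axis (both log10 of UMIs + 1, with small random shifts), for the 124 cells labelled B cells and 54 cells of other labels with UMIs of 2 or more B lineage genes. Red circles mark the 4 cells with 20 or more *Jchain* UMIs, which reach 135 to 8990 *Igkc* UMIs, and 3 of which lie far above all other cells. The circle without a symbol is the *Jchain*-rich cell labelled ILC, which held 1 B lineage gene.

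Outside the B cell label, *Ighm* was the most widespread of the 8 genes. Only 11.4% of its 11686 UMIs lay in B cells, and the others were spread over 4823 cells with a median of 1 UMI each, 871 of which held 50% of them. Its level was 164 CPM in T cells (42.9 to 212 over the libraries), 138 in DC (122 to 151), 86.9 in NKT (40.4 to 133) and 82.7 in T cell Naive (20.6 to 119). It was 46.7 in Myeloid (36.8 to 59.6), 45.1 in T cell MEM (31.7 to 48.2), 43.4 in NK cells (32.2 to 56.1) and 43.0 in ILC (36.2 to 50.4). Neighbors in this order overlapped in their library ranges. T cell EFF followed with 19.6 CPM (16.6 to 22.2), below ILC in every library, and Stroma with 1.09 (0.598 to 1.58). Stem cells, a label of 37 cells, held 3 UMIs.

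As a share of thinned cells, *Ighm* was found in 23.2% of DC (interval 19.7 to 27.0), 21.7% of T cells (16.2 to 28.1), 14.03% of NKT (11.6 to 16.8), 8.52% of ILC (7.72 to 9.37), 7.73% of NK cells (6.94 to 8.58) and 0.288% of Stroma (0.210 to 0.385). Stroma should lack the gene, but at its greater depth thinning removes more of any free RNA, so its thinned share is no measure of the background in shallower cells. The part of free RNA was not tested. Without thinning the shares were 48.4% in DC and 22.6% in NK cells, at median depths of 9549 and 5397 UMIs, against 3.23% in Stroma at 40692. A 3′ UMI of *Ighm* does not show whether the transcript carries a rearranged variable region.

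*Igkc* was found in 966 cells outside the B cell label, or 2.85% of them, without thinning, and in 0.899% of cells after it. Here 2 cells, the *Jchain*-rich cells labelled Myeloid and ILC, held 46.0% of the 6744 UMIs, and 7 cells held 50%. The gene was found in 9.09% of thinned T cells (5.48 to 13.99), with 0%, 0%, 7.41% and 13.8% by library and 5.41% without M6. It was found in 8.35% of DC (6.15 to 11.01), 5.05% of NKT (3.56 to 6.92), 3.41% of T cell MEM (2.44 to 4.64), 1.26% of Myeloid (0.861 to 1.77) and 1.18% of T cell EFF (0.855 to 1.60). NK cells had 0.403% (0.235 to 0.645) and Stroma 0.185% (0.124 to 0.266), both labels that should lack it. Without thinning, Stroma had 2.25%, at 40692 UMIs per cell, near the 3.54% of Myeloid, 3.47% of T cell EFF and 2.64% of ILC at their lower depths. In Stroma the *Igkc* level was 0.569, 1.02, 0.770 and 0.241 CPM, highest in the library with the cell of 8990 *Igkc* UMIs. *Ighg2b*, the leading class of both *Jchain*-rich cells of M2, had 1, 16, 0 and 0 UMIs in Stroma, also most in M2. The *Igkc* order of Stroma did not hold in every group. In NK cells the *Igkc* level was 14.5, 4.40, 1.90 and 1.00 CPM, highest in M1. There, 4 NK cells held UMIs of 2 or more of *Cd79a*, *Cd79b*, *Ms4a1* and *Pax5*, 3 of them in M1. All 4 held 5 or more *Igkc* UMIs, with a median of 26.5, so few cells weigh on this order. In all cells outside the label without the 2 *Jchain*-rich ones the *Igkc* level was 2.40, 2.24, 6.25 and 7.36 CPM, lowest in M2. NK cells had 0.773% without thinning, at 5397 UMIs per cell. The part of free RNA in these shares was not tested.

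The other genes had low pooled levels outside the label, of at most 18.8 CPM for *Cd79a*, 5.13 for *Cd79b*, 20.5 for *Ms4a1*, 0.735 for *Pax5*, 0.981 for *Ighd* and 6.05 for *Jchain*. The share of UMIs inside the B cell label was 71.8% for *Jchain* (12.7% without M2), 70.6% for *Ms4a1*, 64.3% for *Igkc* (34.1% without M2), 56.5% for *Cd79a*, 56.4% for *Ighd*, 43.7% for *Pax5* and 41.4% for *Cd79b*. For *Cd79a*, Stroma alone held a further 504 of 1914 UMIs (26.3%), though its level there was 0.728 CPM, because that label holds most of the UMIs of the table. The log2 ratio to the next label was 8.04 for *Igkc*, 7.80 for *Ighd*, 7.28 for *Cd79b*, 7.18 for *Pax5*, 6.95 for *Cd79a*, 5.69 for *Ms4a1* and 4.19 for *Ighm*. The values of *Cd79a* and *Ms4a1* are set by 1 cell labelled T cells in M6, and without the top cell of each other label they were 9.57 and 9.03. The high ratio of *Igkc* rests on the *Jchain*-rich cell of M2, as it was 6.01 without that library and 6.17 without the 4 *Jchain*-rich cells, below those of *Ighd*, *Cd79b*, *Pax5* and *Cd79a* given above. That order is for a pseudocount of 1 CPM, which lies above the next-label levels of *Pax5* (0.735 CPM) and *Ighd* (0.981 CPM). A larger pseudocount lowers their ratios most. For *Jchain* the ratio was 8.46, and without the 4 cells rich in it the B cell label held none.

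**Figure D4:**
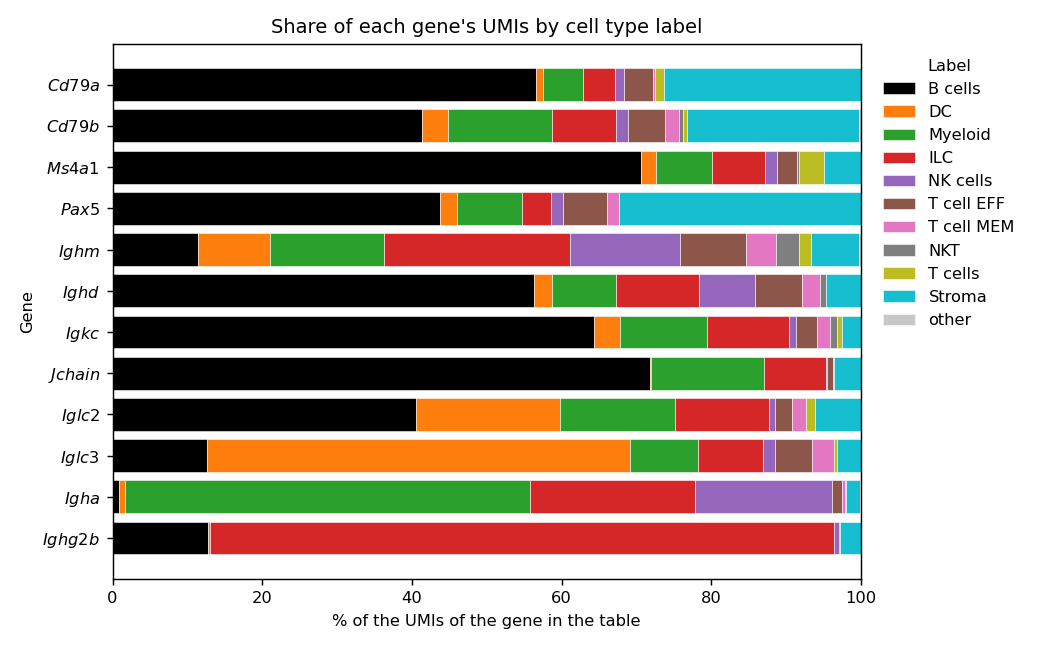
Stacked bars give the percent of each gene's UMIs that lay in each label, adding to 100, with B cells in black. B cells hold 70.6% of *Ms4a1* but 11.4% of *Ighm*, DC hold 56.4% of *Iglc3*, and single cells labelled Myeloid and ILC account for most of *Igha* and *Ighg2b*.

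The ratio of *Igkc* to *Ighm* UMIs was 2.83, 30.6, 2.30 and 2.09 in B cells and 0.295, 0.916, 0.960 and 0.464 in all other cells. The *Jchain*-rich cells are in M1, M2 and M5, and single labels that hold one reached 2.61 (ILC in M2) and 4.2005 (Myeloid in M5). Without those cells it was 2.43, 2.53, 2.30 and 2.09 inside the label. Outside it was 0.295, 0.264, 0.361 and 0.464, and in NK cells 0.289, 0.0784, 0.0591 and 0.0239, the last on 11 *Igkc* UMIs. Stroma had 0.524, 0.887, 0.486 and 0.403, also below B cells in every library. The *Ighm* to *Cd79a* ratio was 1.04, 1.35, 1.24 and 1.33 inside the label, and 1.09, 1.28, 1.24 and 1.33 without the *Jchain*-rich cells. It was 1.61, 2.33, 1.36 and 0.620 in Stroma, but 26.1 to 460 in NK cells over the libraries. NK cells and B cells thus differed in both ratios in every library, although *Cd79a* had as few as 1 UMI in the NK cells of a library.

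Within the DC label, immunoglobulin transcripts lay mainly in the 114 of 556 cells with a UMI of *Siglech*, a receptor of plasmacytoid dendritic cells. This split was made after the values had been seen. A *Siglech* UMI was also found in 128 cells outside the DC label, so 1 UMI of it does not mark that label alone. *Ighm* was found in 69.1% of thinned *Siglech*+ cells (59.6 to 77.6) and 11.4% of *Siglech*- cells, and *Igkc* in 39.1% and 0.466%. *Iglc3* was found in 38.2% and in 0 of 429, which allows up to 0.699%. All 365 *Iglc3* UMIs of the DC label came from *Siglech*+ cells, against 144 of *Iglc2* and 33 of *Iglc1* in the same cells, whereas in B cells *Iglc2* was the highest of the 3, with 309 UMIs against 82 of *Iglc3* and 168 of *Iglc1*. In each library the *Ighm*, *Igkc* and *Iglc3* shares were higher in *Siglech*+ than in *Siglech*- cells, at median depths of 8202.5 and 10956.5 UMIs. Without thinning, *Cd79a* was found in 3 of the *Siglech*+ cells and *Ms4a1* in none, whereas *Cd79b* was found in 14.9% of *Siglech*+ and 0.905% of *Siglech*- cells. The lineage genes thus accompanied the immunoglobulin UMIs only in part.

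Among the 5 labels of T cells, *Igkc* was found in 10.6% of thinned cells with a *Foxp3* UMI and 0.917% of those without, and *Ighm* in 20.2% and 3.36%, a split that was also made after the values had been seen. With the 5 labels pooled, the direction was the same in each of the 4 libraries, with *Igkc* at 4.08% to 14.8% in *Foxp3*+ and 0.573% to 1.20% in *Foxp3*- cells, at median depths of 6554.5 and 7969 UMIs. Within labels *Foxp3*+ cells were the deeper, at 16231.5 against 9854 UMIs in T cell EFF and 7365 against 6174 in T cell MEM. In NKT it was 5132 against 3925, and in T cells 5034 against 3912. With libraries pooled, thinned *Ighm* shares in these 4 labels were 10.9%, 22.2%, 24.8% and 29.6% with *Foxp3*. Without it they were 2.02%, 4.74%, 7.45% and 12.2%. Within single labels and libraries it was not always so, but the exceptions were zeros in small groups. *Igkc* in T cell EFF of M1 was at 0% with *Foxp3* and 0.521% without, and *Ighm* in T cell MEM of M2 at 0% and 3.80%. Before thinning these *Foxp3*+ groups had 25 and 9 cells. *Igkc* in T cell MEM and *Ighm* in T cells, both of M1, were also at 0%, with 6 and 2 *Foxp3*+ cells. Such zeros cannot show the opposite direction.

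The alpha class gene *Igha* had its own distribution. Of 480 cells with an *Igha* UMI, 404 were labelled NK cells or ILC, with at most 8 UMIs each, and 7 of these also held *Igkc*. Without thinning, *Igkc* was found in 0.773% of all NK cells and 2.64% of all ILC, so the 7 cells do not set *Igha* cells apart. After thinning, *Igha* was found in 0.929% of ILC and 0.782% of NK cells, from 0.563% to 1.27% and from 0.529% to 1.09% between libraries, against 0.00639% of Stroma, 0.0846% of T cell EFF, 0.196% of Myeloid, 0.371% of DC (0.0450 to 1.33) and 0.893% of B cells, which is 1 cell. The DC interval takes in the values of ILC and NK cells.

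**Figure D5:**
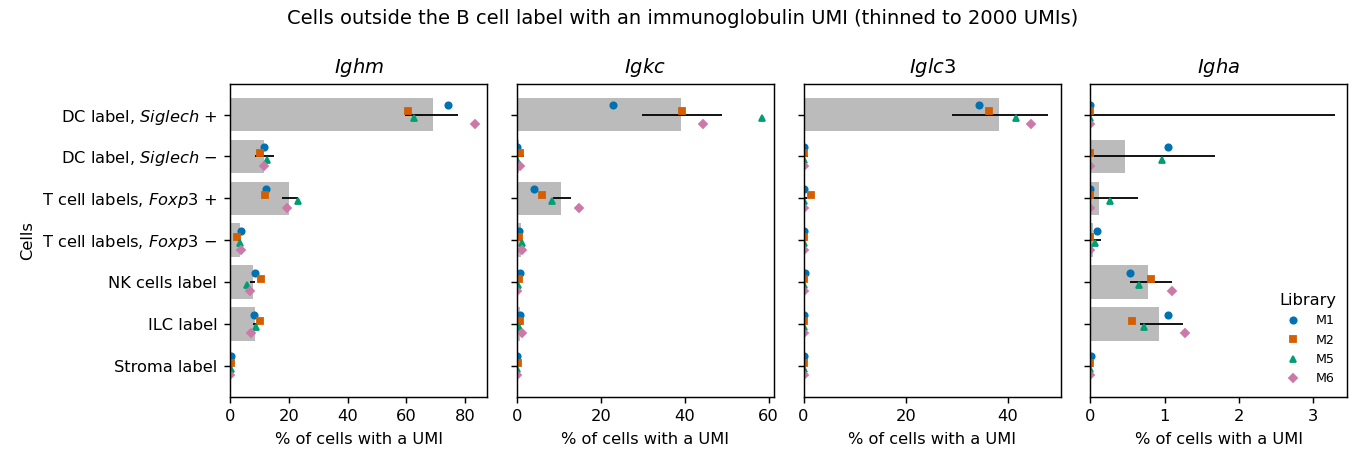
Bars give the percent of cells with a UMI of *Ighm*, *Igkc*, *Iglc3* or *Igha* after thinning to 2000 UMIs, with exact 95% binomial intervals and one symbol per library; each panel has its own x axis. Among these groups, all outside the B cell label, *Siglech*+ cells of the DC label lead for the first 3 genes (69.1%, 39.1% and 38.2%), and NK cells and ILC for *Igha* (0.782% and 0.929%).

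Cells outside the label with UMIs of 2 or more of *Cd79a*, *Cd79b*, *Ms4a1* and *Pax5* numbered 54 of 33837 (0.160%, interval 0.120 to 0.208). M1 held 24 of them, M2 6, M5 12 and M6 12. By label, 16 were Stroma (0.102% of that label), 14 Myeloid (0.522%), 10 ILC (0.216%) and 7 T cell EFF (0.193%). Another 4 were NK cells (0.0910%), and 1 each DC, T cell MEM and T cells. The 54 cells were deep, with a median of 31359 UMIs against 16217 for all cells outside the label. Their median *Igkc* count was 15.5 per cell, against 24 in B cells, whose median depth was only 2811 UMIs. *Cd79a* is part of the rule that picked them, so its counts are not compared. Of the 14 in Myeloid, all held 2 or more UMIs of myeloid markers and 12 held 5 or more *Igkc* UMIs. The 16 in Stroma differed, with a median of 0 *Igkc* UMIs. A doublet score over 0.25 was found in 4 of the 54 (7.41%) and in 1.79% of all cells outside the label. Whether they were doublets was not tested. Immunoglobulin constant genes reached 1% of UMIs in 3 cells outside the label, 2 ILC and 1 Myeloid, against 84 of 124 B cells.

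Other genes of the pathway were taken from named lists, each described by its counts beside the background above. Among 13 coreceptor and signaling genes, 11 were highest in B cells with libraries pooled and 9 in each library, with a median log2 ratio of 1.54. The adaptor *Bank1* had 477 CPM, against 3.42 in the next label, and the kinase gene *Syk* 269, against 107 in Myeloid. The inhibitory Fc receptor gene *Fcgr2b* (65.5 CPM) and *Cd81* (230 CPM) were higher in another label, Myeloid and Stroma respectively. Among 8 transcription factors, 7 were highest in B cells and 6 in each library. *Ebf1*, which specifies the lineage with PAX5, had 1405 CPM and was found in 118 of 124 cells, and *Pou2af1*, a coactivator of immunoglobulin transcription, had 242 CPM. *Irf8* was the exception, with 693 CPM in B cells and 2076 in NK cells.

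Of 10 surface and survival genes, 8 were highest in B cells, each in all libraries. They included the tetraspanin gene *Cd37* with 784 CPM, *Ly6d* with 687 and *Fcmr*, the IgM Fc receptor gene, with 499. *Ccr7* and *Cd40* were higher in T cell Naive and DC. The MHC class II genes *H2-Aa* (4323 CPM), *H2-Eb1* (3399) and *H2-Ab1* (3164) were abundant in B cells. With libraries pooled they were higher in DC, though *H2-Eb1* was highest in B cells in 1 library, so 2 of 5 presentation genes were highest in B cells. Of 9 further immunoglobulin constant genes in the table, 8 were highest in B cells with libraries pooled and 3 in each library. The B cell UMIs of *Ighg1*, *Ighg2b* and *Ighg2c* all came from the 2 *Jchain*-rich cells and those of *Igha* from 1 cell. The lambda genes were spread more widely, *Iglc2* over 66 cells with 698 CPM and *Iglc1* over 44 with 379.

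Apart from *Mzb1*, lists of later and earlier B cell stages gave few UMIs. Of 9 plasma cell genes, 4 were highest in B cells and 2 in each library, led by *Mzb1* with 946 CPM, or 424 without the *Jchain*-rich cells. *Mzb1* had 419 UMIs in 76 of the 124 B cells, and 171 in 74 cells without the *Jchain*-rich ones. It also had 276 UMIs in 70 cells of the DC label. *Sdc1* had 8 UMIs in 4 cells. Of 5 germinal center genes, 0 were highest in B cells, and the proliferation gene *Mki67* had 4 UMIs, at 9.03 CPM against 200 in T cell EFF. Of 5 precursor genes, *Rag1* had 2 UMIs, and *Rag2*, *Vpreb1*, *Igll1* and *Dntt* had none, which allows up to 6.78 CPM each.

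The genes most like the set were found over the 12 labels, by Pearson's r between each gene's log2(CPM + 1) and the mean standardized profile of the 8 genes, among 3220 genes with at least 20 UMIs in B cells. The 10 highest were *Fcrl1* (r = 0.99), *Cd22* (0.99), *Pou2af1* (0.99), *Srpk3* (0.98), *Ebf1* (0.97), *Fcmr* (0.97), *Vpreb3* (0.96), *Gm30211* (0.96), *Gm31243* (0.96) and *Iglc1* (0.96). The labels share libraries and 1 label sets most of each profile, so r is a description. *Fcrl1*, an Fc receptor-like gene, reached 83.6 CPM in the B cell label, from 57.6 to 125 between libraries, and *Cd22*, an inhibitory coreceptor gene, 102 CPM, from 77.8 to 151. Of the 8 genes themselves, *Ighm* had the lowest r with the mean profile, 0.84, and *Igkc* the next lowest, 0.93, whereas the other 6 lay between 0.95 and 0.98. Each gene is part of that mean profile. The r of *Jchain*, 0.95, rests on the 2 cells that held all its UMIs in the B cell label.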

How the data were processed

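The authors counted UMIs with Cell Ranger 3.0.2 (per the submitters' processing notes) on GRCm38, kept cells above 500 UMIs, merged the libraries and deposited raw counts per gene and cell, with a label from correlation with ImmGen profiles. Removal of doublets and correction for free RNA are not given in the sources used here. Analyses used scipy 1.17.1, numpy 2.4.6 and pandas 2.3.3 under Python 3.11.15. UMIs were summed per label and scaled to CPM. For thinned shares, 2000 UMIs were drawn from each cell without replacement, which dropped 696 cells of lower depth. Thinning and the profile correlation were tested on simulated data. A scrublet doublet score was computed in each library (scanpy 1.11.5, expected rate 0.06), and cells over 0.25 were left out only in an alternative. Intervals are 95% Clopper-Pearson, and for a count of 0 the limit is 3 counts. The 8 genes and the lists were chosen with earlier results of these data known. From each list up to 4 genes were to be named, those highest in B cells; exceptions within a list, the *Jchain*-rich cells, the *Siglech* and *Foxp3* splits, and *Igha* were singled out after their values had been seen. *Ighg2a* of the constant gene list was not analysed here, and some genes of the lists are not reported here. The rule of 2 or more among 4 lineage genes was set after seeing the data. No test was run. Alternatives changed the thinning depth, pseudocount, thresholds, cells and libraries used.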

Additional observations from a re-analysis of the deposited data

How the results depend on the processing

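No paired analysis was possible because the libraries could not be matched to samples and no result comes from a test. The share of cells outside the B cell label with an *Igkc* UMI was 0.899% and depended on depth, with 0.556% at 1000 UMIs, 1.29% at 4000 and 2.85% without thinning. Leaving out 1 library each gave 0.749% to 1.10%. The 54 cells with 2 or more B lineage genes became 15 after thinning and 35 with 3 or more genes, and leaving out 1 library gave 30 to 48, with 30 without M1. The 3 cells with 1% immunoglobulin became 17 at 0.5%. With a pseudocount of 10 CPM the log2 ratios of *Cd79b*, *Pax5*, *Ighd* and *Jchain* were 5.99, 4.60, 5.36 and 7.27. With a mean over cells those of *Cd79a*, *Ms4a1*, *Igkc* and *Jchain* were 8.53, 7.06, 6.41 and 6.86. Without the top cell of each other label they were 9.57, 9.03, 8.35 and 10.98. Without cells of high doublet score *Igkc* gave 6.06 and *Jchain* 3.67. Without the 4 *Jchain*-rich cells, an alternative chosen after seeing the data, *Igkc* gave 6.17 and *Jchain* -0.45, as no B cell UMI was left. Leaving out 1 library each gave 6.22 to 9.26 for *Cd79a* and 4.97 to 8.76 for *Ms4a1*, both highest without M6, and 6.01 to 8.68 for *Igkc* and 3.92 to 9.69 for *Jchain*, both lowest without M2. The other 55 alternatives of the log2 ratios, and all 6 of the share of cells with the B cell label, moved by less than the counting interval. At 124 cells and a median of 2811 UMIs, genes at the level of *Pax5* cannot be called absent from a cell.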
